A study of Mus musculus with 7 samples.

Results

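Transcript levels in embryos made with oocytes that had been vitrified and warmed were set against those in embryos made with fresh oocytes, gene by gene. The vitrified class holds all 5 libraries from vitrified and warmed oocytes and the fresh class holds both libraries from fresh oocytes, so that all 7 libraries of the series entered the comparison. Of the vitrified class, 3 libraries (CROC+K) were from embryos without melatonin and 2 (CROC+K+M) from embryos treated with melatonin, a pineal hormone with antioxidant action, at 10 µM. The fresh class is the group FOC+K. A vehicle is named for the series without saying which embryos received it. All 7 libraries share the rest of the design. The embryos were made by somatic cell nuclear transfer (SCNT) from cumulus cells, the somatic cells around the oocyte. They were injected with mRNA of Kdm4a, a histone demethylase gene, and carry the strain label B6D2F1 and a wild type genotype label. Each library came from a pool of 50 to 100 embryos and is labelled 2-cell, although the treatment protocol also names blastocysts. The labels do not say whether replicates came from separate oocyte collections or days, so errors and p-values measure the spread between these libraries, which may be technical.

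Vitrification cools oocytes so fast, in concentrated cryoprotectant, that water sets as a glass without ice crystals. Warmed oocytes are known for damage to the spindle, mitochondria and membranes, and for stress from osmotic volume changes. In SCNT the oocyte supplies the cytoplasm, with its stored mRNAs, ribosomes and mitochondria, and reprograms the donor nucleus. The early embryo runs on these stores until its own genome is switched on, which in the mouse happens mainly at the 2-cell stage.

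The widest separation in the deposited table belonged to a small RNA. Snora47, a small nucleolar RNA of the H/ACA class, which guides the conversion of uridine to pseudouridine in other RNAs, had 68.3, 48.1 and 159 FPKM in CROC+K, 128 and 129.7 FPKM in CROC+K+M, and 0 and 0 FPKM in FOC+K. FPKM are sequenced fragments scaled to transcript length and library size. All 5 vitrified libraries held it and both fresh libraries are listed at 0. With the small RNA rows added to the genes, the adjusted p of Snora47 for vitrified against fresh was 0.0080 in limma, and it was the only one of 12295 rows past the threshold of 0.05 (0.00813%). It had passed the filter of 1 FPKM in 2 libraries through the vitrified libraries alone, so the test was not independent of the class in which it is high. No fold is given against a group listed at 0. In GENCODE M21 (GRCm38) Snora47 is an RNA of 138 bases at chr13:95330600-95330737 on the plus strand, inside an intron of Zbed3 and with no overlap with an exon of it. Rpph1, the other RNA printed here, had the widest gap among the genes. It is the RNA subunit of ribonuclease P, which trims the 5′ end of tRNA precursors, and lies at chr14:50807449-50807767 on the minus strand, with 319 bases of which the first 300 are given. The capitals in Snora47 mark the ACA nearest the 3′ end, the element that gives the class part of its name. The capitals in Rpph1 mark the 233 bases it shares with the first exon of a Ccnb1ip1 transcript on the same strand, where fragments of the genes cannot be told apart.

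Snora47: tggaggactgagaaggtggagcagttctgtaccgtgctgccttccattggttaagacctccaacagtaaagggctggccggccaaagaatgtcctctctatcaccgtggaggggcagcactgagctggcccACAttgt

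Rpph1: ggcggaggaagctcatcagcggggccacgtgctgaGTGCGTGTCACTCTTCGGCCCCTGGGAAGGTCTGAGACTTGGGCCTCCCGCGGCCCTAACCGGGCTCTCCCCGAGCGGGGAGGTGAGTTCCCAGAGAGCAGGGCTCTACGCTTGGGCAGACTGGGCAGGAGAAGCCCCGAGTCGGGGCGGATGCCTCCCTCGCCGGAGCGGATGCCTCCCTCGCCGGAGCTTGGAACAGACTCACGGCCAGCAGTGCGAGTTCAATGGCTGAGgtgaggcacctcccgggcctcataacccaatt

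The call for Snora47 rested on few libraries. It was lost without CROC+K replicate 1 (adjusted p = 0.0802), without FOC+K replicate 1 (0.212), without FOC+K replicate 2 (0.210) and without both CROC+K+M libraries (0.0637), and it was kept, at 0.0041 to 0.0378, when any other single library was left out. Without either fresh library, the lone one left is assumed to vary like the other groups. The fresh libraries had no spread at this gene, since both are listed at 0. All these fits used the rows that passed the same filter, so a call kept in them is no independent support. Zbed3, the zinc finger gene whose intron holds it, had 3744, 2589 and 2529 FPKM in CROC+K, 1565 and 1666 FPKM in CROC+K+M, and 2926 and 3672 FPKM in FOC+K, and the classes overlapped. The step between low values in a library, taken as the worth of 1 fragment, puts FOC+K replicate 1 at the fewest fragments of all libraries and FOC+K replicate 2 at 1.38 times that number, against 1.06 to 1.56 times in the vitrified libraries. The part of sequencing depth in the zeros was not tested.

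The table holds 1289 small RNA rows, of which 1159 are microRNAs, 123 small nucleolar or Cajal body RNAs and 7 others. Only 34 of them were above 0 in any library, and 19 reached 1 FPKM in 2 or more libraries. Of these 19 rows, 3 (15.8%) lay higher in all 5 vitrified libraries than in both fresh ones and 0 lay lower (0%), beside 3.81% higher and 3.19% lower among the genes tested. Besides Snora47 they were Snora74a and Scarna13. The filter admits a row through any 2 of the 5 vitrified libraries, but through the fresh class alone only with both. For that reason nothing is read from the 15.8% and 0%. Snora74a, another H/ACA RNA, had 8.33, 4.55 and 14.8 FPKM in CROC+K, 8.08 and 3.18 FPKM in CROC+K+M, and 0 and 0 FPKM in FOC+K. It too is listed at 0 in both fresh libraries and passed the filter through the vitrified ones alone, at an adjusted p of 0.999 in limma. Scarna13, a Cajal body RNA of the kind that guides changes to spliceosomal RNAs, had 1.79, 1.86 and 8.04 FPKM in CROC+K, 14.97 and 5.29 FPKM in CROC+K+M, and 0 and 1.48 FPKM in FOC+K. Only FOC+K replicate 2 of the fresh libraries reached 1 FPKM, so Scarna13 too needed the vitrified ones to pass the filter. Its values in CROC+K replicates 1 and 2 were close to the one in FOC+K replicate 2. The log2 difference of Scarna13 was 1.91 ± 0.64 (SE) at an adjusted p of 0.999 in limma. Snhg10, which holds Scarna13 in GENCODE M21, had 8.49 to 33.01 FPKM in the vitrified libraries and 11.001 and 15.1 FPKM in the fresh ones, with overlap.

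The remaining 16 small RNA rows overlapped between the classes. Mir6236, the highest of them, had 780.5, 536 and 131 FPKM in CROC+K, 212 and 120.2 FPKM in CROC+K+M, and 455 and 235 FPKM in FOC+K. It was highest in CROC+K replicate 1 and lowest in CROC+K+M replicate 2, with both fresh libraries in between. Mir6340 was at 0 in both CROC+K+M libraries and in FOC+K replicate 1 and above 0 in the other 4. Rnu11, the U11 RNA of the minor spliceosome, had 352 FPKM in CROC+K replicate 3 and 210.2 FPKM in CROC+K+M replicate 2 and is listed at 0 in the other 5 libraries. In all, 7 of the 19 rows were at 0 in both fresh libraries. The filter admits such rows through any 2 of the 5 vitrified libraries, and would admit a row at 0 in all vitrified libraries only through both fresh ones, so nothing is read from that number. Of the 34 rows above 0 in any library, the number above 0 was 15, 14 and 10 in CROC+K, 16 and 15 in CROC+K+M, and 7 and 14 in FOC+K, so that FOC+K replicate 2 lay within the range of the vitrified libraries and FOC+K replicate 1 below it. These RNAs are shorter than or close to the length of a sequenced fragment, and their FPKM depends strongly on that length.

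**Figure D1:**
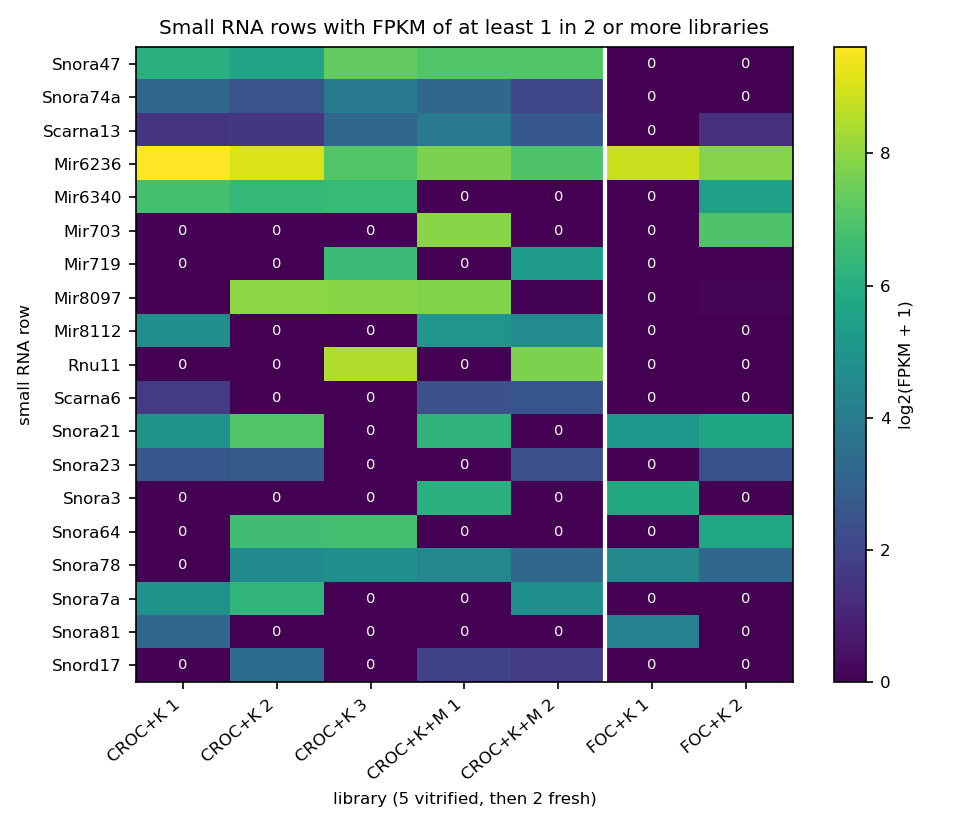
Level of the 19 small RNA rows with at least 1 FPKM in 2 or more libraries, as log2(FPKM + 1) in colour, with the 5 vitrified libraries left of the white line and the 2 fresh ones right of it; a 0 marks a value of exactly 0. The first 3 rows are those with all vitrified libraries above both fresh ones, and 7 rows are at 0 in both fresh libraries.

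Outside the small RNAs, 12275 genes of the 24319 rows reached 1 FPKM in 2 or more libraries and were tested on the log2(FPKM + 1) scale, which understates the differences of low genes. In 468 genes (3.81%) all 5 vitrified libraries lay above both fresh ones, and in 392 (3.19%) all 5 lay below, which makes 860 genes (7.01%) without overlap. No gene passed the adjusted threshold in limma (0 of 12275, lowest adjusted p = 0.999), and 298 (2.43%) had an unadjusted p under 0.05, of which 148 were among the higher and 83 among the lower genes without overlap. The distance between the nearest libraries of both classes, called the gap here, had a median of 0.11 on the log2 scale and reached 0.5 in 14 higher and 18 lower genes. The log2 difference of a gene, given with limma's standard error after the sign ±, is the mean of the 5 vitrified libraries minus that of the 2 fresh ones. Its median was 0.65 among the higher genes, -0.57 among the lower genes and 0.0059 over all genes tested. The split between higher and lower genes depended on the scaling of the libraries. As deposited, 54.4% of the genes without overlap were higher in the vitrified class, after quantile normalization it was 43.4% (397 higher, 517 lower), and with FPKM scaled to equal sums it was 4.94% (82 higher, 1577 lower). The FPKM sums themselves were 575457, 797689 and 814958 in CROC+K, 1018000 and 726297 in CROC+K+M, and 585039 and 552356 in FOC+K, and equal sums moved the median of all genes to -0.35.

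**Figure D2:**
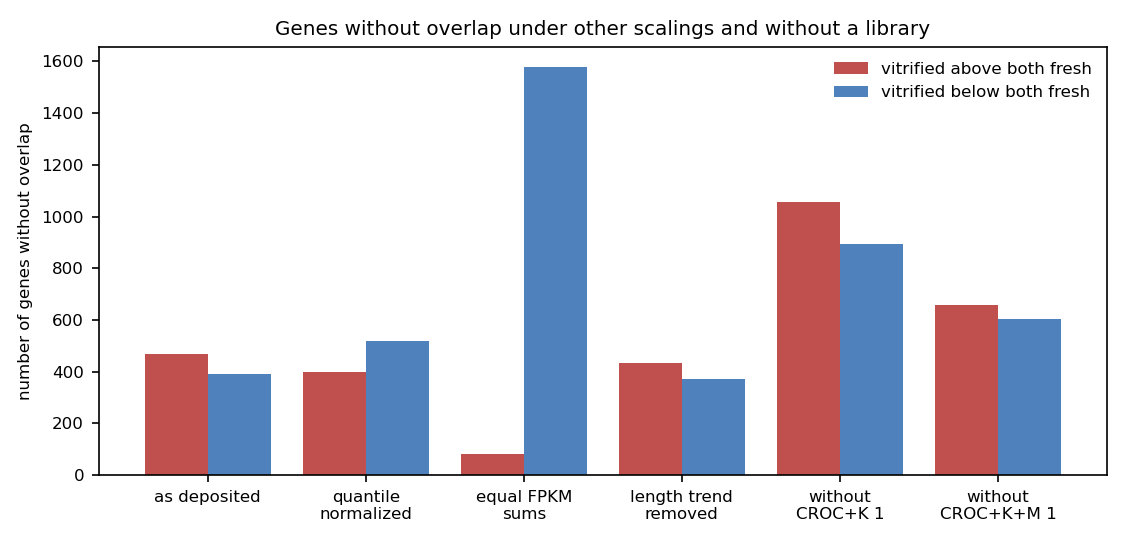
Number of genes in which the vitrified libraries lay above (red) or below (blue) both fresh libraries, with FPKM as deposited, under 3 other treatments of the values, and with 1 vitrified library left out. Equal FPKM sums gave 82 and 1577 genes, against 468 and 392 as deposited.

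Most genes named from here on were chosen by their gap in these same 7 libraries. Their differences and unadjusted p-values are not independent of that choice, and no support is drawn from them. Among the genes, Rpph1 stood first. Its levels were 12.5, 46.4 and 24.97 FPKM in CROC+K, 19.6 and 14.8 FPKM in CROC+K+M, and 2.83 and 6.22 FPKM in FOC+K, a log2 difference of 2.08 ± 0.50 (SE) at an unadjusted p of 0.00373 in limma. The lowest vitrified library, CROC+K replicate 1, was at 12.5 FPKM and the higher fresh one at 6.22. Ccnb1ip1, a gene of meiotic crossover whose exon it shares, had 16.8, 3.79 and 10.6 FPKM in CROC+K, 8.403 and 25.1 FPKM in CROC+K+M, and 22.4 and 15.5 FPKM in FOC+K, and its classes overlapped. Ccdc107, a coiled-coil protein gene, had 3.84, 6.84 and 10.5 FPKM in CROC+K, 15.3 and 6.39 FPKM in CROC+K+M, and 0.735 and 1.603 FPKM in FOC+K, a difference of 2.05 ± 0.47. Both fresh libraries lay below every vitrified one. In GENCODE M21, 1 of 6 Ccdc107 transcripts has an exon with 124 bases opposite Rmrp, the RNA of ribonuclease MRP. Rmrp itself is listed at 0 in all libraries but CROC+K+M replicate 1 (3.27 FPKM). CROC+K replicate 2 was the highest library for Rpph1 and CROC+K+M replicate 1 for Ccdc107.

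The other higher genes with the widest gap described here were of mixed function. Atox1, a copper chaperone gene with antioxidant action, had 665, 711 and 679 FPKM in CROC+K, 1829 and 1153 FPKM in CROC+K+M, and 409 and 477 FPKM in FOC+K, a difference of 1.07 ± 0.26 (unadjusted p = 0.00396 in limma). The CROC+K libraries lay close together and the CROC+K+M libraries above them, with differences from FOC+K of 0.63 in CROC+K and 1.72 in CROC+K+M. Akip1, a gene for a partner of protein kinase A, had 103, 139.8 and 135 FPKM in CROC+K, 122 and 114 FPKM in CROC+K+M, and 72.5 and 65.2 FPKM in FOC+K (0.82 ± 0.23), with CROC+K and CROC+K+M in the same range. Ypel5, a subunit gene of a ubiquitin ligase complex, had 699, 1022 and 1130.0 FPKM in CROC+K, 858 and 684 FPKM in CROC+K+M, and 479.6 and 487 FPKM in FOC+K (0.83 ± 0.27) with little spread between the fresh libraries. Selk, the gene of an endoplasmic reticulum selenoprotein, had 149.8, 152 and 137 FPKM in CROC+K, 290.3 and 180.4 FPKM in CROC+K+M, and 78.01 and 97.1 FPKM in FOC+K (0.998 ± 0.26). Tsnax, the gene of the translin partner TRAX, had 9.63 to 18.9 FPKM in the vitrified libraries and 4.64 and 6.39 FPKM in the fresh ones (1.03 ± 0.29).

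Urod, the heme synthesis enzyme uroporphyrinogen decarboxylase, had 18.1 to 37.7 FPKM in the vitrified libraries and 11.1 and 11.6 FPKM in the fresh ones (0.92 ± 0.32). Faap20, a gene of the Fanconi anemia DNA repair complex, had 18.4 to 43.2 FPKM in the vitrified libraries and 10.8 and 11.5 FPKM in the fresh ones (1.04 ± 0.35), and Becn2, an autophagy gene, had 9.41 to 22.9 FPKM in the vitrified libraries and 5.48 and 6.67 FPKM in the fresh ones (1.01 ± 0.39). Uqcrq, a subunit gene of respiratory complex III, was the most uneven of the 15. It had 126, 126 and 131 FPKM in CROC+K, 1126 and 185 FPKM in CROC+K+M, and 80.9 and 92.3 FPKM in FOC+K, so that CROC+K+M replicate 1 alone stood over 1000 FPKM, and its differences from FOC+K were 0.55 in CROC+K and 2.39 in CROC+K+M. Pnkd had 268 to 392 FPKM in the vitrified libraries and 192 and 201 FPKM in the fresh ones (0.74 ± 0.26) and Fam162a, a mitochondrial protein gene, had 24.7 to 56.9 FPKM in the vitrified libraries and 15.1 and 18.4 FPKM in the fresh ones (0.99 ± 0.38). The gap was 0.410 for Fam162a, the last gene taken, and 0.409 for Hscb, the next. All 15 had an adjusted p of 0.999 in limma. Their median transcript length was 674.5 bases.

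Of the 15 lower genes with the widest gap, all were low, with FPKM between 1.90 and 29.2 in every library. Il31, a cytokine gene, had 5.48, 4.91 and 3.16 FPKM in CROC+K, 2.66 and 1.905 FPKM in CROC+K+M, and 8.502 and 11.3 FPKM in FOC+K, a log2 difference of -1.29 ± 0.32 (SE, unadjusted p = 0.00459 in limma). Its fresh values exceeded all vitrified ones, and the CROC+K+M libraries were the lowest. Pias4, a gene of a SUMO ligase, had 6.99, 5.24 and 6.05 FPKM in CROC+K, 2.68 and 4.44 FPKM in CROC+K+M, and 10.4 and 10.7 FPKM in FOC+K (-0.98 ± 0.30). Qk, the gene of the RNA-binding protein Quaking, had 16.6, 19.4 and 20.3 FPKM in CROC+K, 19.4 and 17.1 FPKM in CROC+K+M, and 29.2 and 26.02 FPKM in FOC+K (-0.55 ± 0.24), with little spread among the vitrified libraries. Raver1, a gene of a splicing regulator, had 8.03 to 9.98 FPKM in the vitrified libraries and 12.6 and 14.97 FPKM in the fresh ones (-0.55 ± 0.26).

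Other lower genes with a wide gap follow. Ttf1, the termination factor gene of RNA polymerase I, had 6.84, 6.18 and 4.72 FPKM in CROC+K, 6.73 and 5.76 FPKM in CROC+K+M, and 10.4 and 8.92 FPKM in FOC+K (-0.60 ± 0.28). Zfx, an X-linked transcription factor gene, had 7.87, 3.67 and 3.72 FPKM in CROC+K, 5.699 and 7.88 FPKM in CROC+K+M, and 14.2 and 10.6 FPKM in FOC+K (-1.03 ± 0.37), where CROC+K replicates 2 and 3 were the lowest. Pim3, a kinase gene that opposes apoptosis, had 9.58, 3.39 and 3.22 FPKM in CROC+K, 8.16 and 7.49 FPKM in CROC+K+M, and 13.5 and 12.1 FPKM in FOC+K (-1.005 ± 0.41), and again CROC+K replicates 2 and 3 lay lowest and CROC+K replicate 1 nearest to the fresh libraries. Klhl13, an X-linked adaptor gene of a cullin ubiquitin ligase, had 4.22 to 6.75 FPKM in the vitrified libraries and 8.996 and 9.42 FPKM in the fresh ones (-0.74 ± 0.28). Fam46b, a poly(A) polymerase gene, had 5.505 to 9.402 FPKM in the vitrified libraries and 14.2 and 17.6 FPKM in the fresh ones (-0.90 ± 0.29), and Garem, an adaptor gene of growth factor signalling, had 3.06 to 5.55 FPKM in the vitrified libraries and 8.28 and 10.5 FPKM in the fresh ones (-0.85 ± 0.30). Prkd1, the gene of protein kinase D1, had 3.205 to 6.71 FPKM in the vitrified libraries and 8.73 and 8.76 FPKM in the fresh ones (-0.68 ± 0.33). The other 4, Fam222b, Stac2, Phactr4 and Cabp1, had differences of -0.60 ± 0.25, -0.77 ± 0.32, -0.63 ± 0.27 and -1.05 ± 0.44. The gap was 0.29 both for Cabp1, the last gene taken, and for Taf9b, the next. The median transcript length of the 15 was 2287 bases.

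**Figure D3:**
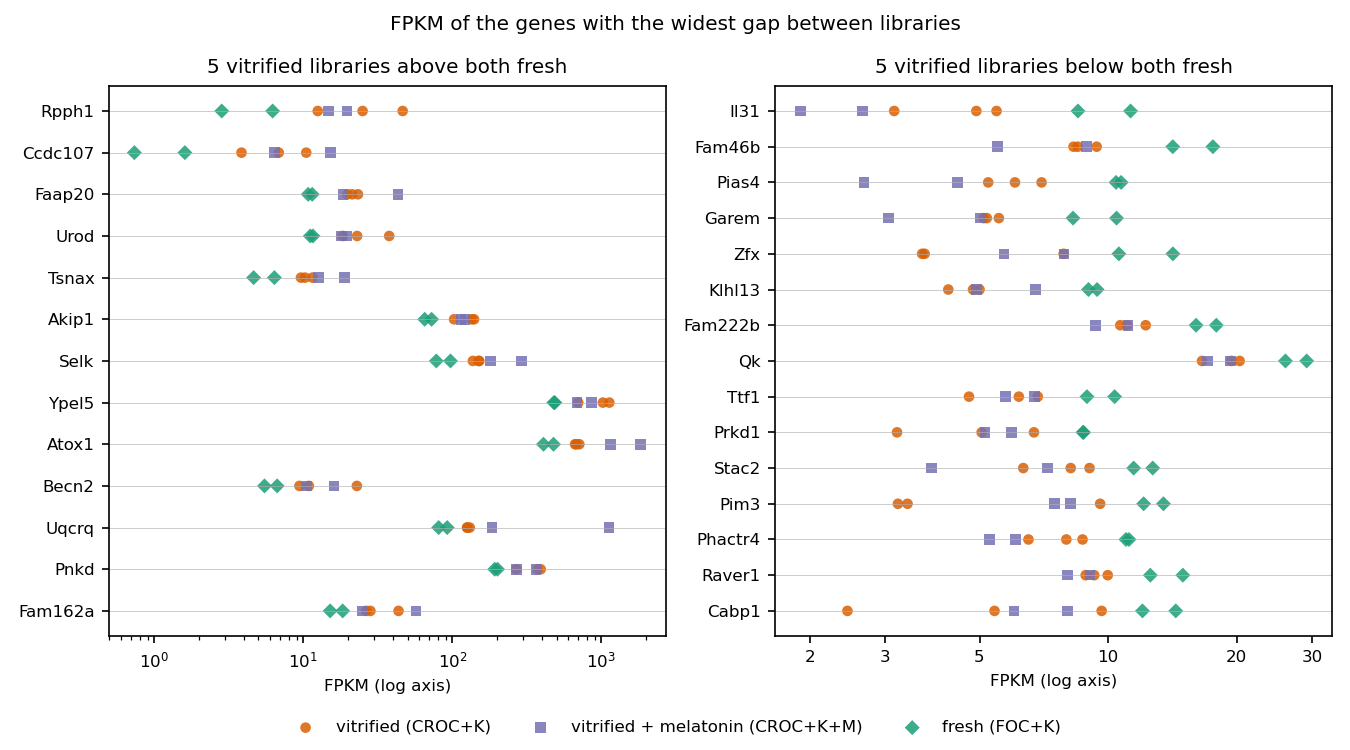
FPKM on log axes of 13 of the 15 genes with the widest gap and all vitrified libraries above both fresh ones (left) and of the 15 with all below (right); each point is 1 library, with CROC+K as circles, CROC+K+M as squares and FOC+K as diamonds. Rpph1 heads the left panel with 12.5 FPKM in its lowest vitrified library and 6.22 in its higher fresh one, and Il31 heads the right one.

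Whether these genes kept their side was also counted under 3 other treatments of the values. Equal FPKM sums lower the vitrified libraries with larger sums at all genes, which by construction takes higher genes from their side and leaves lower ones on it, and 6 of the 15 higher genes and all 15 lower genes kept their side there. After quantile normalization 12 of the 15 higher and all 15 lower genes did, and with the length trend described below removed, 14 and 15. The 5 higher genes that kept their side under each of the 3 included Rpph1, Ccdc107, Faap20 and Tsnax. Over all genes without overlap, 241 of 468 higher and 311 of 392 lower genes kept their side after quantile normalization, 367 and 302 with the length trend removed, and 79 and 381 with equal FPKM sums.

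Short and long genes were not alike. Of the shortest quintile of genes, with transcripts up to 737 bases, 6.98% lay higher in all vitrified libraries and 1.81% lower. Of the longest quintile, from 2500 bases up, 1.64% lay higher and 5.10% lower, and the quintiles between followed in order. The median log2 difference was 0.13 in the shortest quintile and -0.078 in the longest. The median transcript was 825 bases among the 468 higher genes, 1752.5 among the 392 lower ones and 1288 among all genes with a length (99.1%). Within each of 5 quintiles of level the median length was shorter among higher than among lower genes, by amounts that differed. In the quintile of lowest level it was 1404 bases among higher genes, 1647 among lower ones and 1509.5 among all, and in that of highest level it was 738, 1379 and 903 bases. Per library, the median deviation from the gene means in the shortest quintile minus that in the longest was -0.065, -0.062 and -0.032 in CROC+K, 0.33 and 0.065 in CROC+K+M, and -0.15 and -0.16 in FOC+K. All vitrified libraries lay above both fresh ones, at an exact two-sided permutation p of 0.0952, the smallest that 5 against 2 libraries can give, and at 0.476 after Benjamini-Hochberg adjustment over 15 such library values. This length value was not among the library values planned for testing. CROC+K+M replicate 1 was the farthest out. With the trend of level on length taken out of each library, a treatment chosen after seeing the data, 434 genes lay higher and 371 lower, and 669 of the 860 genes were without overlap in both versions. The part of RNA quality or library preparation in this was not tested.

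**Figure D4:**
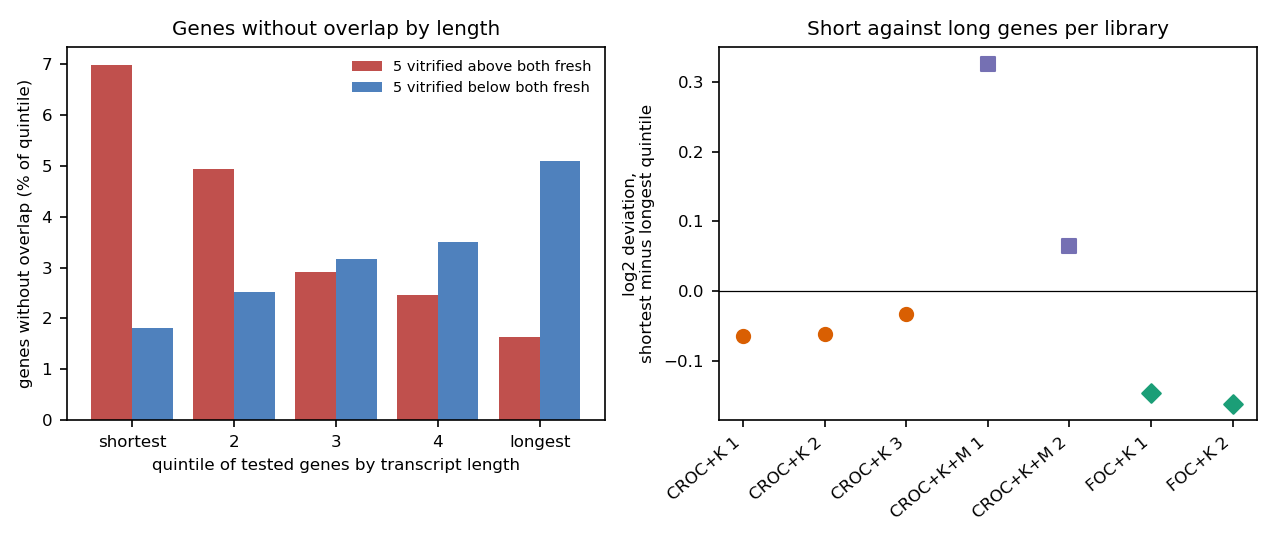
Left, share of the genes of each quintile by transcript length in which all vitrified libraries lay above (red) or below (blue) both fresh ones; right, per library, the median log2 deviation from the gene means in the shortest quintile minus that in the longest, vitrified libraries first. The share of higher genes was 6.98% in the shortest quintile and 1.64% in the longest, and both fresh libraries lay below all 5 vitrified ones at right.

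The libraries of the vitrified class were themselves uneven, in ways that touch these counts. CROC+K replicate 1 was the vitrified library nearest to the fresh ones in 230 (49.1%) of the higher and 138 (35.2%) of the lower genes without overlap, and without it 1055 genes lay higher and 894 lower. CROC+K+M replicate 1 was the farthest in 199 (42.5%) and 127 (32.4%), and without it the counts were 658 and 603. Rn45s, from which the ribosomal RNAs are cut, stood at 2114, 266 and 237 FPKM in CROC+K, 224 and 175 FPKM in CROC+K+M, and 1183 and 1047 FPKM in FOC+K, so that CROC+K replicate 1 stood with the fresh libraries. The summed level of 25 trophectoderm markers was 86.4 to 176 FPKM in 4 vitrified libraries, 27750 in CROC+K+M replicate 1, and 103 and 141 in the fresh ones. The median deviation of the trophectoderm list from the gene means was 2.25 in CROC+K+M replicate 1 and -0.70 to -0.27 in the others. Of 14 tested members, 13 had a higher mean in the vitrified class and 1 a lower one. The median log2 difference of that list was 0.47, or -0.25 with CROC+K+M replicate 1 left out. The inner cell mass markers summed to 826 to 1668 FPKM in the same 4 vitrified libraries, 20396 in CROC+K+M replicate 1, and 1419 and 1008 in the fresh ones. That rise was not shared by the inner cell mass list as a whole. Its median deviation from the gene means was 0.34 in CROC+K+M replicate 1, beside 0.29 in FOC+K replicate 1. In the vitrified class 4 of its tested members had a higher mean and 11 a lower one. Of 15 such markers tested 1 was without overlap, Gata4, a transcription factor gene of the primitive endoderm, with 2.67 to 8.99 FPKM in the vitrified libraries and 9.799 and 11.3 FPKM in the fresh ones (-0.86 ± 0.43). All 7 oocyte markers and all 5 2-cell embryo markers reached 1 FPKM, with sums of 3493 to 5962 FPKM in the vitrified libraries and 5545 and 6050 in the fresh ones for the oocyte and of 108 to 716 and 168 and 345 for the 2-cell markers. Cumulus cell markers summed to 21.4 to 42.9 FPKM in the vitrified and 24.3 and 35.8 in the fresh libraries, with Ptx3 and Dcn at 0 throughout. Blood cell markers summed to 3.38 to 35.6 FPKM in the vitrified libraries and 13.1 and 16.3 in the fresh ones, with Hbb-b1, Ptprc and Alas2 at 0, and fibroblast markers to at most 0.093 FPKM. The part of these differences in the results was not tested. Kdm4a, which was injected, had 497, 4051 and 4949 FPKM in CROC+K, 2797 and 689 FPKM in CROC+K+M, and 2014 and 816 FPKM in FOC+K, a log2 difference of 0.49 ± 0.97 (SE), within the spread of the libraries. In bulk RNA, fewer cells of a type and less RNA per cell cannot be told apart.

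Gene lists for the pathways named with oocyte cryopreservation were described by their counts and medians. Of 28 lists, 22 had a median above 0 as deposited. With equal FPKM sums there were 3, with quantile normalized values 14, and without CROC+K+M replicate 1 there were 16. Leaving out that library turned the sign of 6 medians and moved 13 others by over 1.5 times, and leaving out any other single library turned 1 to 4 and moved 6 to 12 others. The counts of their members without overlap stand beside 3.81% of all genes tested higher and 3.19% lower. These shares differed with level, and with transcript length as given above, and the lists were not matched for either. In the quintile of highest level 9.41% lay higher and 1.91% lower, and in the lowest 1.51% and 4.15%. Over all 12275 genes tested, 6216 had a higher mean in the vitrified class and 6059 a lower one. Oxidative phosphorylation genes, which encode the respiratory chain and ATP synthase, had the highest median of the 28 as deposited. Of 76 tested, 73 had a higher mean in the vitrified class, 21 (27.6%) lay higher in all 5 libraries and 0 lay lower, and the median log2 difference was 0.80. The size and the rank of that median rested on CROC+K+M replicate 1. Set against the same FOC+K libraries, CROC+K had a median of 0.12 and CROC+K+M one of 1.77. Per library, the list lay at a median of -0.36, -0.50 and -0.37 from the gene means in CROC+K, 2.41 and 0.18 in CROC+K+M, and -0.58 and -0.52 in FOC+K. The median difference was 0.23 with CROC+K+M replicate 1 left out, below the 0.36 of cytosolic ribosomal protein genes and the 0.24 of small nucleolar RNA host genes. Without FOC+K replicate 1 it was 0.76, also below the 0.78 of the cytosolic ribosomal protein genes. With equal FPKM sums it was 0.36, where 6 of the 76 lay higher in all vitrified libraries, beside 0.668% of all genes. With the length trend removed it was 0.68, where 19 of the 76 lay higher, beside 3.57% of all genes.

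Within this list Cox7a2, a subunit gene of complex IV, had 556, 807 and 725 FPKM in CROC+K, 1757 and 1182 FPKM in CROC+K+M, and 431 and 456 FPKM in FOC+K (1.06 ± 0.27). Ndufa7, a complex I gene, had 213, 199 and 211 FPKM in CROC+K, 1845 and 381 FPKM in CROC+K+M, and 152 and 139 FPKM in FOC+K (1.32 ± 0.53). Ndufb6, also of complex I, had 595 to 1577 FPKM in the vitrified libraries and 453 and 492 FPKM in the fresh ones (0.82 ± 0.32). The differences from FOC+K were 0.63 in CROC+K and 1.70 in CROC+K+M for Cox7a2, 0.51 in CROC+K and 2.52 in CROC+K+M for Ndufa7 and 0.56 in CROC+K and 1.22 in CROC+K+M for Ndufb6. In all 3, as in Uqcrq, CROC+K+M replicate 1 was the highest library. The trophectoderm markers are high in that same library, as given above.

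Cytosolic ribosomal protein genes had a higher mean in 76 of 81, with 10 (12.3%) higher in all 5 vitrified libraries, 0 lower, and a median of 0.61. Rps27l, a ribosomal protein gene that p53 also switches on, had 5901, 8996 and 8981 FPKM in CROC+K, 9571 and 8935 FPKM in CROC+K+M, and 4210.0 and 4764 FPKM in FOC+K (0.90 ± 0.29). Rps21 had 699.6 to 1531 FPKM in the vitrified libraries and 523 and 604 FPKM in the fresh ones (0.91 ± 0.34), Rps23 had 462 to 1689 FPKM in the vitrified libraries and 372 and 388 FPKM in the fresh ones (0.92 ± 0.33) and Rpl31 had 114 to 453 FPKM in the vitrified libraries and 88.9 and 101 FPKM in the fresh ones (0.85 ± 0.34), and their levels are uncertain because ribosomal protein genes have many processed copies. Leaving out CROC+K+M replicate 1 gave a median of 0.36, and it was 0.16 both with equal FPKM sums and after quantile normalization. With the length trend removed the median was 0.49, and 8 of the 81 lay higher. Per library, the list lay at a median of -0.53, 0.15 and -0.0019 from the gene means in CROC+K, 1.29 and 0.051 in CROC+K+M, and -0.24 and -0.61 in FOC+K. Without CROC+K replicate 1, 40 of the 81 lay higher, beside 8.59% of all genes, and with equal FPKM sums 3 did, beside 0.668%. The median of the list was -0.074 when only CROC+K replicate 1 was set against the fresh libraries. For mitochondrial ribosomal protein genes the mean was higher in 57 of 76, 7 (9.21%) lay higher in all 5 and 0 lower, and the median was 0.29, or 0.038 without CROC+K+M replicate 1, -0.082 for CROC+K alone and -0.11 with equal FPKM sums. Mrps14 had 221, 262 and 243 FPKM in CROC+K, 391 and 401 FPKM in CROC+K+M, and 186 and 179.7 FPKM in FOC+K (0.68 ± 0.21), and Mrpl2 had 55.7 to 62.2 FPKM in the vitrified libraries and 41.5 and 47.02 FPKM in the fresh ones (0.43 ± 0.22) with the narrowest spread of the list members named here. Mrpl48 and Mrpl51 had differences of 0.997 ± 0.41 and 0.72 ± 0.25.

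Small nucleolar RNA host genes, which carry such RNAs in their introns, had a higher mean in 15 of 19, with 2 (10.5%) higher in all 5 and a median of 0.34, or -0.090 with equal FPKM sums. Snhg12 had 44.5, 44.9 and 36.3 FPKM in CROC+K, 35.7 and 33.6 FPKM in CROC+K+M, and 22.5 and 27.7 FPKM in FOC+K (0.61 ± 0.24), without overlap and with CROC+K somewhat above CROC+K+M. Eif4a2, an RNA helicase gene of translation, had 72.5 to 132 FPKM in the vitrified libraries and 63.8 and 66.2 FPKM in the fresh ones (0.40 ± 0.29). In the list of nucleolar ribosome biogenesis and RNA polymerase I genes 1 of 63 lay higher and 2 lower, at a median of 0.034. Nop56, a core protein gene of box C/D small nucleolar RNA particles, was the higher one with 95.4 to 157 FPKM in the vitrified libraries and 59.1 and 84.9 FPKM in the fresh ones (0.83 ± 0.28). The lower ones were Ttf1, given above, and Mybbp1a, at 7.96 to 9.895 FPKM in the vitrified libraries and 10.03 and 10.8 FPKM in the fresh ones (-0.24 ± 0.26).

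Cell death and p53 genes gave small numbers, to be read beside 3.81% of all genes tested higher and 3.19% lower. Among 34 pro-apoptotic genes 3 (8.82%) lay higher in all vitrified libraries and 0 lower, with a median of 0.22. It was 0.0011 with CROC+K+M replicate 1 left out, 0.069 with FOC+K replicate 2 left out and -0.15 with equal FPKM sums. Diablo, an antagonist of apoptosis inhibitors, had 101, 126 and 122 FPKM in CROC+K, 117 and 117 FPKM in CROC+K+M, and 76.7 and 76.9 FPKM in FOC+K (0.59 ± 0.22), and the vitrified libraries stood close together above a fresh pair that was nearly equal. Cycs, the gene of cytochrome c, which belongs to respiration as well, had 70.7, 104 and 94.95 FPKM in CROC+K, 217 and 107 FPKM in CROC+K+M, and 54.6 and 50.7 FPKM in FOC+K (1.05 ± 0.33). Siva1, a p53-responsive death gene, had 1520.0 to 2281 FPKM in the vitrified libraries and 1398 and 1406 FPKM in the fresh ones (0.45 ± 0.25). In 27 anti-apoptotic genes 0 lay higher and 1 lower, Pim3, and the median was 0.13. Of 26 p53 target genes 3 (11.5%) lay higher and 1 (3.85%) lower, at a median of 0.27. Besides Rps27l, given above, Gadd45a, a stress gene that is also listed with DNA demethylation, had 61.5, 111 and 77.9 FPKM in CROC+K, 49.3 and 85.7 FPKM in CROC+K+M, and 42.4 and 43.4 FPKM in FOC+K (0.78 ± 0.33), Ddb2, a damage recognition gene, had 33.04 to 50.6 FPKM in the vitrified libraries and 29.03 and 32.9 FPKM in the fresh ones (0.37 ± 0.26), and Ei24, the lower one, had 20.7 to 35.5 FPKM in the vitrified libraries and 39.4 and 48.9 FPKM in the fresh ones (-0.53 ± 0.28). Trp53 itself, picked after its values were seen, had 14.2, 17.1 and 21.6 FPKM in CROC+K, 11.1 and 7.94 FPKM in CROC+K+M, and 8.895 and 9.52 FPKM in FOC+K, and its classes overlapped. None of the genes in these lists passed the adjusted threshold in limma (adjusted p = 0.999).

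In the stress lists most closely tied to cooling and warming, few or no genes were without overlap. Of all genes tested, 3.81% lay higher and 3.19% lower. Lists of this size would hold few such genes at those shares, so nothing is read from the low counts. The antioxidant list had 31 of 46 genes with a higher mean, 0 higher in all 5 and 0 lower, at a median of 0.19, or 0.085 with CROC+K+M replicate 1 left out. The heat shock list had 30 of 40 with a higher mean and again 0 and 0, at 0.13, or 0.079 without FOC+K replicate 2. The following examples were chosen after their values were seen. Sod1, the cytosolic superoxide dismutase, had 84.3 to 98.2 FPKM in the vitrified libraries and 82.5 and 107 FPKM in the fresh ones, and Gpx1, a glutathione peroxidase gene, had 435 to 1859.6 FPKM in the vitrified libraries and 422 and 562 FPKM in the fresh ones. Hspa8, a constitutive chaperone gene, had 92.9, 286 and 348 FPKM in CROC+K, 550.4 and 90.01 FPKM in CROC+K+M, and 137 and 70.9 FPKM in FOC+K, with overlap between the classes. Endoplasmic reticulum stress genes had 1 of 31 higher, Ddit3, which encodes the transcription factor CHOP, with 57.8, 104 and 149 FPKM in CROC+K, 161 and 38.3 FPKM in CROC+K+M, and 33.8 and 32.2 FPKM in FOC+K (1.41 ± 0.57, unadjusted p = 0.0400 in limma). CROC+K+M replicate 2 was the vitrified library nearest to the fresh ones there.

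The next lists are short as well, and their counts are to be read beside the same shares of all genes. Cold-inducible RNA binding and stress granule genes had 0 of 24 higher and 1 lower, at a median of -0.018. The lower one was Ddx3x, an X-linked RNA helicase gene, with 136, 165 and 168 FPKM in CROC+K, 106 and 176 FPKM in CROC+K+M, and 209 and 193 FPKM in FOC+K (-0.44 ± 0.27). The cold shock genes Cirbp and Rbm3 were chosen after their values were seen. Cirbp had 7.78 to 27.2 FPKM in the vitrified libraries and 12.98 and 15.02 FPKM in the fresh ones, and Rbm3 had 9.26 to 97.6 FPKM in the vitrified libraries and 22.4 and 25.8 FPKM in the fresh ones, so that the fresh values lay inside the vitrified range in both. Aquaporin and volume regulation genes had a lower mean in 14 of 19, with 0 higher and 0 lower in all vitrified libraries and a median of -0.19. Calcium handling genes had 0 and 0 of 21 as well, at 0.018, and so did 40 autophagy and lysosome genes, at 0.15, or -0.013 with CROC+K+M replicate 1 left out.

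Of 48 cytoskeleton and spindle genes 3 (6.25%) lay higher in all vitrified libraries and 0 lower, beside 3.81% and 3.19% of all genes tested. The median of the list was 0.14, or -0.012 with CROC+K+M replicate 1 left out and 0.036 with FOC+K replicate 2 left out. Cdc20, the activator of the anaphase-promoting complex, had 140.3, 241 and 271 FPKM in CROC+K, 148 and 175 FPKM in CROC+K+M, and 136 and 89.1 FPKM in FOC+K (0.77 ± 0.33), and CROC+K replicate 1 and CROC+K+M replicate 1 lay close to the higher fresh library. Mad2l1, its checkpoint inhibitor, had 396 to 527 FPKM in the vitrified libraries and 378 and 387 FPKM in the fresh ones (0.24 ± 0.23), where the sign turned under equal FPKM sums (-0.21) and quantile normalization (-0.23). Myl6, a myosin light chain gene, had 249, 357 and 352 FPKM in CROC+K, 2610.4 and 329 FPKM in CROC+K+M, and 235 and 234 FPKM in FOC+K, with CROC+K+M replicate 1 far above all others.

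The maternal and 2-cell stage lists stand beside 3.81% of all genes tested higher and 3.19% lower. Maternal oocyte transcripts had a higher mean in 35 of 61, with 3 (4.92%) higher in all 5 and 0 lower, at a median of 0.040. Nobox, an oocyte transcription factor gene, had 11.3 to 14.4 FPKM in the vitrified libraries and 8.498 and 10.5 FPKM in the fresh ones (0.39 ± 0.26) and Oas1d, an oocyte-expressed relative of the oligoadenylate synthetases, had 77.2 to 95.4 FPKM in the vitrified libraries and 70.2 and 72.7 FPKM in the fresh ones (0.25 ± 0.22). Omt2a, an abundant oocyte transcript with a close copy, had 17392 to 33057 FPKM in the vitrified libraries and 15502 and 16637 FPKM in the fresh ones (0.68 ± 0.39). All 3 turned sign under equal FPKM sums or quantile normalization. Transient 2-cell stage genes had 0 of 31 higher and 1 lower, Tdpoz2, at 2.34, 0.864 and 7.396 FPKM in CROC+K, 3.51 and 2.05 FPKM in CROC+K+M, and 17.9 and 7.82 FPKM in FOC+K (-1.79 ± 0.60), which has close copies. The spread of that list within the vitrified class was wide, with library medians of -1.04, 0.84 and 1.44 from the gene means in CROC+K.

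The chromatin and genome maintenance lists come next, to be read beside the same shares of all genes. In 18 DNA methylation genes Gadd45a lay higher and 2 (11.1%) lower. Dnmt3a, a DNA methyltransferase gene, had 9.203, 10.3 and 8.695 FPKM in CROC+K, 4.78 and 9.34 FPKM in CROC+K+M, and 10.6 and 11.6 FPKM in FOC+K (-0.39 ± 0.31), and Ctcf, the insulator protein gene, had 24.6 to 38.5 FPKM in the vitrified libraries and 38.7 and 47.1 FPKM in the fresh ones (-0.51 ± 0.26), with gaps of 0.040 and 0.0078 on the log2 scale. Suv39h2, a methyltransferase gene of histone H3 lysine 9, was the only one of 27 H3K9 modifier genes without overlap and lay lower, at 16.7 to 22.5 FPKM in the vitrified libraries and 22.9 and 25.2 FPKM in the fresh ones (-0.25 ± 0.26). Kdm4a removes methyl groups from this lysine. Of 57 DNA repair genes Pcna, the sliding clamp of replication, lay higher with 174 to 309 FPKM in the vitrified libraries and 136 and 164 FPKM in the fresh ones (0.62 ± 0.28), as did Ddb2, and Topbp1, a replication checkpoint gene, lay lower with 11.001 to 18.3 FPKM in the vitrified libraries and 18.4 and 18.7 FPKM in the fresh ones (-0.39 ± 0.29).

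The metabolic and RNA processing lists are described last, again beside 3.81% of all genes tested higher and 3.19% lower. In 43 cholesterol and lipid genes 4 (9.30%) lay higher and 1 (2.33%) lower, at a median of 0.15, or 0.0029 with CROC+K+M replicate 1 left out. Apoa2, an apolipoprotein gene, had 9.91, 17.2 and 17.2 FPKM in CROC+K, 7.198 and 10.7 FPKM in CROC+K+M, and 5.52 and 2.91 FPKM in FOC+K (1.34 ± 0.37, unadjusted p = 0.00685 in limma), with both fresh libraries below every vitrified one. Lss, the lanosterol synthase of cholesterol synthesis, had 1.46 to 2.86 FPKM in the vitrified libraries and 1.14 and 1.25 FPKM in the fresh ones (0.57 ± 0.33). The glycolysis list, which also takes in genes of pyruvate and lactate handling, had 2 of 23 higher and 1 lower. Aldoa was higher at 96.5 to 197 FPKM in the vitrified libraries and 81.6 and 92.01 FPKM in the fresh ones. Pdhb, a pyruvate dehydrogenase gene, was at 142 to 192 FPKM in the vitrified libraries and 114 and 139 FPKM in the fresh ones. The lower one was the lactate carrier gene Slc16a1, at a gap of 0.010. Of 65 splicing genes Sf3b2, with 39.2 to 59.3 FPKM in the vitrified libraries and 32.9 and 33.9 FPKM in the fresh ones, and Prpf6, with 8.13 to 15.3 FPKM in the vitrified libraries and 7.27 and 7.52 FPKM in the fresh ones, lay higher and Hnrnpl lower, with 3.82, 3.22 and 3.901 FPKM in CROC+K, 7.27 and 3.995 FPKM in CROC+K+M, and 7.31 and 7.43 FPKM in FOC+K. In Hnrnpl 4 vitrified libraries stood near 4 FPKM or below, and CROC+K+M replicate 1 all but met the fresh ones. Of 47 proteasome genes Psmb6 lay higher, with 217 to 795 FPKM in the vitrified libraries and 195 and 213 FPKM in the fresh ones.

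**Figure D5:**
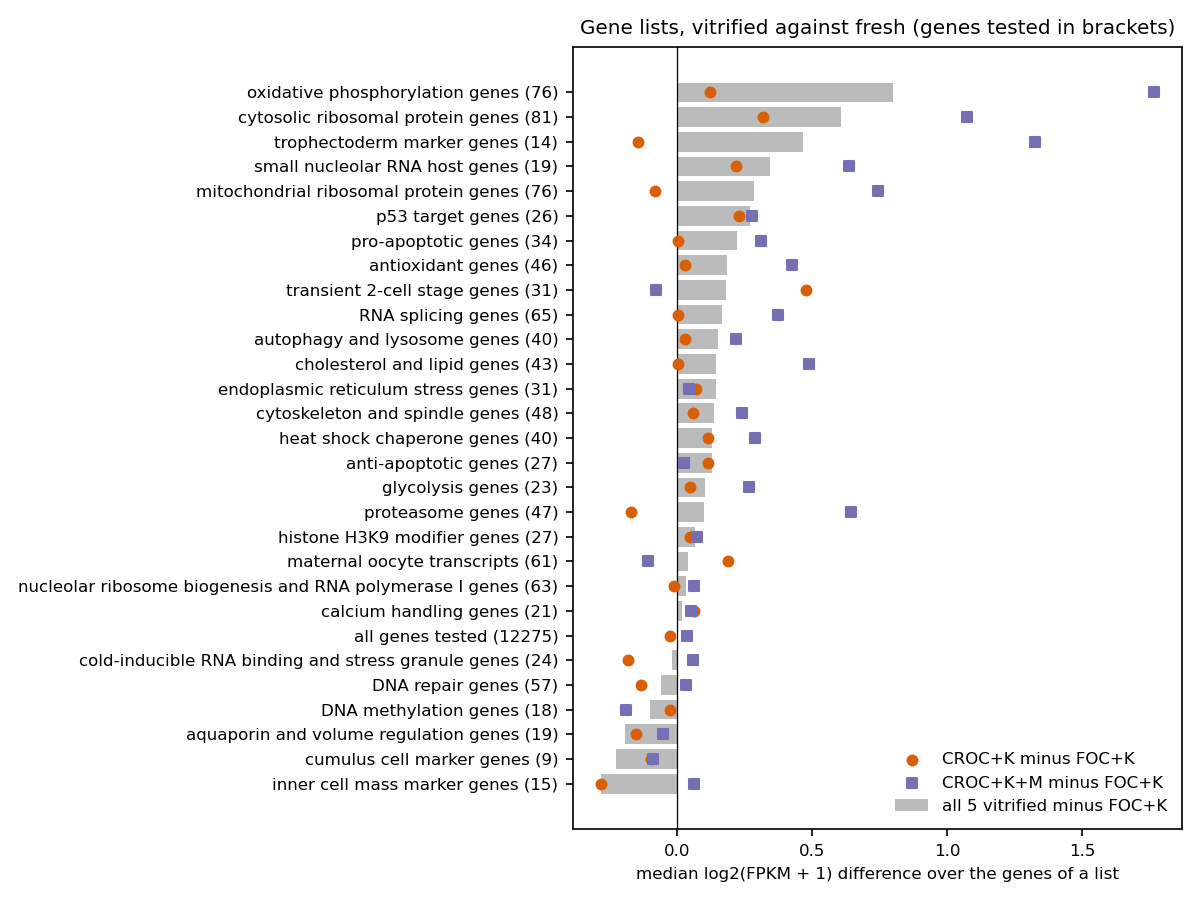
Median log2(FPKM + 1) difference over the tested genes of each list, as grey bars for the 5 vitrified libraries minus FOC+K, circles for CROC+K minus FOC+K and squares for CROC+K+M minus FOC+K; both groups share the FOC+K libraries. Oxidative phosphorylation genes head the plot at 0.80, with 0.12 for CROC+K and 1.77 for CROC+K+M, and all genes tested lie at 0.0059.

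The vitrified groups could also be set against each other for the genes named here. Of the 15 higher genes 8 had a higher and 7 a lower mean with melatonin (CROC+K+M) than without (CROC+K), and of the 15 lower genes 6 and 9. In limma 0 of the 30 passed the adjusted threshold for that contrast (lowest adjusted p = 0.409), and 2 had an unadjusted p under 0.05. Over all 12275 genes tested the numbers were 0 and 1281. A p that misses the threshold does not show that the levels did not differ.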

How the data were processed

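The authors deposited 1 FPKM value per gene and library, in a table of 24319 rows by 7 libraries. Cufflinks 2.2.1, Cuffnorm, STAR 2.5.2b, R 3.3.2 and the mouse build mm9 are listed in the submitters' processing notes. Sources used here do not name the annotation, the strand setting or any scaling between libraries. Groups came from the sample titles. FPKM were used as deposited, as log2(FPKM + 1). Genes with an FPKM of at least 1 in 2 or more libraries were tested, without small RNA rows and Rn45s. limma 3.58.1 (intensity trend, R 4.3.3) was fitted to all 7 libraries with 3 groups (4 residual degrees of freedom), and the contrast was the mean of the 5 vitrified libraries minus that of FOC+K (weights 0.6 and 0.4), two-sided, with Benjamini-Hochberg adjustment over all genes and a threshold of 0.05. Errors are limma's standard errors. The script was tested on simulated data. Exact depth is unknown; relative fragment numbers were read from the steps of low values. Named genes were the 15 per direction with the widest gap, a mean FPKM of at least 5 and no clone name, up to 4 members without overlap per list (not all are printed, and 2 genes that the rule takes are not reported here), the small RNA rows without overlap, and Kdm4a and Rn45s. The 28 lists hold 1209 symbols, 1200 of them in the table. The members, lists and rules were chosen with earlier results of these data known. Lengths, neighbours and sequences came from GENCODE M21 (GRCm38), which is not the build of the files, so only the positions of the printed sequences are given. Tables and plots were made in Python 3.11.15 (scipy 1.17.1, pandas 2.3.3, matplotlib 3.10.9).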

Additional observations from a re-analysis of the deposited data

Results flagged for a closer look

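Of 45 values checked over the 5 vitrified libraries, 9 had 1 library far from the other 4, a rule that chance meets in about 1 of 20, and 6 of the 9 were in CROC+K+M replicate 1. In that library Faap20 stood at 43.2 FPKM against 18.4 to 23.2 in the other 4, Selk at 290.3 against 137 to 180.4, Uqcrq at 1126 against 126 to 185, and Fam46b at 5.505 against 8.30 to 9.40. The summed trophectoderm markers were at 27750 FPKM there against 86.4 to 176, and the summed inner cell mass markers at 20396 against 826 to 1668. The inner cell mass sum was not shared by its list as a whole, whose median deviation from the gene means there was 0.34. Urod was at 37.7 FPKM in CROC+K replicate 3 against 18.1 to 22.9. Garem was at 3.06 FPKM in CROC+K+M replicate 2 against 5.03 to 5.55. Rn45s was at 2114 FPKM in CROC+K replicate 1 against 175 to 266.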

How the results depend on the processing

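In 0 of the alternatives did a gene outside the small RNAs pass the adjusted threshold in limma; the number at an unadjusted p under 0.05 ran from 52 without FOC+K replicate 1 to 1356 with array weights. Genes without overlap numbered 860 in all (468 higher, 392 lower). There were 1659 (82, 1577) with equal FPKM sums, 9124 (4836, 4288) when only the libraries with Rn45s over 1000 FPKM were used, which leaves 1 vitrified library, and 2348 (1186, 1162) without the CROC+K+M libraries. Lower genes numbered 790 with no filter and 217 with the stricter one. Leaving out 1 library in turn gave 1183 to 2234 (618 to 1119 higher, 557 to 1123 lower), and fewer libraries make overlap rarer by construction. Small RNA rows above both fresh libraries numbered 3, and 11 in the libraries with high Rn45s and 5 without FOC+K replicate 2 (3 to 5 over single libraries left out). Lists with a median above 0 numbered 22, and 3 with equal FPKM sums, 14 after quantile normalization and 14 in the libraries with high Rn45s; single list medians moved by over their spread in 57 of 560 cases.

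The sign of a named gene turned in 17 cases. With equal FPKM sums these were Ddb2 (-0.058), Mad2l1 (-0.21), Pdhb (-0.051), Mrpl2 (-0.0076), Eif4a2 (-0.042), Sf3b2 (-0.038), Nobox (-0.019), Oas1d (-0.19), Elovl5 (-0.034) and Acadm (-0.14), all above the median of -0.35 of all genes. After quantile normalization they were Siva1 (-0.13), Mad2l1 (-0.23), Omt2a (-0.30), Acadm (-0.13) and Kdm4a (-0.13). Kdm4a was at -1.36 in the libraries with high Rn45s and at -0.16 without FOC+K replicate 2, in a range up to 1.15 over single libraries left out. The cause was not tested.

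Deviations of same-numbered libraries correlated at -0.457 to 0.029. These few values cannot decide whether same-numbered libraries shared a day or an oocyte collection. With the replicate block, 0 genes passed and 111 had an unadjusted p under 0.05, against 298 without it, and the 860 genes without overlap are the same by construction. With 2 fresh libraries, counts without overlap and single genes rest on few values, and differences of low genes are the least certain.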

Other observations

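Malat1, an abundant nuclear non-coding RNA, was chosen after its values were seen. It had 60.6, 259 and 199.9 FPKM in CROC+K, 475 and 132 FPKM in CROC+K+M, and 53.1 and 46.97 FPKM in FOC+K, a log2 difference of 1.84 ± 0.65 (SE, unadjusted p = 0.0237 and adjusted p = 0.999 in limma), with all 5 vitrified libraries above both fresh ones and CROC+K replicate 1 nearest to them. Xist, the RNA that silences the X chromosome in female cells and is known to be raised in SCNT embryos, had 2.17, 0.4398 and 0.448 FPKM in CROC+K, 24.6 and 4.55 FPKM in CROC+K+M, and 1.26 and 3.67 FPKM in FOC+K, with overlap between the classes. Of 406 tested genes on the X chromosome, 12 (2.96%) lay higher in all vitrified libraries and 17 (4.19%) lower, at a median of -0.016, against 3.81% and 3.19% of all genes tested.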
